A study of Rattus norvegicus with 12 samples.

Results

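The rat miRNAs (microRNAs) rno-miR-483-3p, rno-miR-483-5p and rno-miR-335, written below without the species prefix, are encoded within 2 imprinted host genes, and all 3 were present among the 574 miRNAs of a rat heart table and among the 367 of a table called exosome, out of 583 different miRNAs in all. They were picked by name, miR-483 as a miRNA of Igf2 and miR-335 as a miRNA of Mest, with their mean levels in the groups headed CK and M and the ratio of these already known. The levels and their difference between CK and M are therefore given as a description, with the authors' deposited p-values and a limma fit beside them but no further test. Small RNA was sequenced from 6 samples labelled heart and 6 labelled serum, all from SD rats, with total RNA isolated by Trizol, and the exosome table is taken to hold the serum samples, since no others could stand behind it. The design text describes ligation of the left coronary artery for 30 min followed by reperfusion for 1 week. The labels do not say what CK and M stand for, which of them had the ligation or which samples belong to either, and give no age and no word on pooling of animals. Nothing says that the libraries came from separate animals, so their spread may be technical. The whole reads behind each deposited mean were reconstructed by arithmetic, which showed 3 libraries for CK and 3 for M in each table. Within a group, library 1 is the shallowest and library 3 the deepest, and a number does not tie a heart library to an exosome library.

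An imprinted gene is expressed mainly from the copy inherited from one parent. Igf2, which encodes a fetal growth factor, and Mest, which is active in mesodermal tissue of the embryo, are both expressed from the paternal copy, and both are much more active before birth than in the adult rodent. A miRNA inside a host gene can be cut from the host's transcript or from a transcript of its own, and a hairpin can yield a 5p and a 3p arm, of which either may be kept in the silencing complex. In human cells miR-483-3p is known for repressing the apoptosis gene BBC3, and miR-335 for restraining metastasis of breast cancer cells. The mRNAs of Igf2 and Mest were not measured here.

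The hairpin and both arms of miR-483 are shown because the reads of the arms are compared further on. In RefSeq's annotation of the rat assembly GRCr8 the hairpin gene lies within Igf2 on chromosome 1. The sequences are RefSeq's, on the strand of the miRNA, 5′ to 3′. Capitals mark the mature arms in the hairpin and the seed, bases 2 to 8, in each arm.
mir-483 hairpin: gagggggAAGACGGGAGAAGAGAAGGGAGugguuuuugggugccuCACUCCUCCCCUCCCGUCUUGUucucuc
miR-483-5p: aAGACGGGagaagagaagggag
miR-483-3p: cACUCCUCcccucccgucuugu
The 5p arm is a purine strand, with 10 A and 11 G among its 22 bases, and the 3p arm holds 12 C and 7 U. A predicted fold of the hairpin (RNAfold) had a free energy of -33.8 kcal/mol and paired 16 bases of one arm with the other, including all 7 seed bases of miR-483-5p and 6 of the 7 of miR-483-3p. The seeds differ between the arms, and 0 of the 693 mature miRNA names searched in the RefSeq table shared either seed. Aligned without gaps, the nearest sequence to either arm differed at 7 or more positions, so a mature miRNA of near-identical sequence that could share reads with an arm was not found there. The sequence of miR-335 is not shown.

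The depth of a library, estimated from the deposited means, ranged in heart from 4059000 to 6610000 miRNA reads for CK and from 2253000 to 5421000 for M. In the exosome table it ranged from 1696000 to 5328000 for CK and from 1855000 to 1961000 for M. The 4 heart muscle miRNAs miR-1-3p, miR-133a-3p, miR-208a-3p and miR-499-5p made up 74039 of every 1000000 normalized reads of the group (reads per 1000000, RPM) in heart CK and 65377 in heart M. Of these, 3 were listed in the exosome table, at 1955 and 1866 RPM, while the red cell miRNAs miR-451-5p, miR-486 and miR-144-3p made up 120206 and 123018 RPM. Heart M library 2 stood apart, being the highest or the lowest of the 6 heart libraries for 59.9% of the 277 miRNAs whose reads were solved in every library and whose mean was 10 or more, against 19.5% to 35% for the other heart libraries. In the exosome table the same count gave 53.8% of the 249 such miRNAs for CK library 1 and 19.3% to 38.6% for the other libraries. Ties for the lowest value, as where several libraries had 0 reads, were credited to the first library in order, starting with CK library 1. The exosome shares therefore cannot tell whether CK library 1 stood apart. In the exosome libraries single miRNAs were often missing: 54.2% of these 249 had 0 reads in at least 1 of the 6 libraries, against 0.361% of the 277 in heart.

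In heart, both arms of miR-483 were lower in M than in CK, and miR-335 was higher. miR-483-3p had 73, 88 and 141 reads in the CK libraries, which are levels of 76.7, 63.7 and 90.9 normalized reads (reads divided by the size factor of the library). It had 10, 5 and 32 reads in the M libraries, at levels of 21.2, 4.89 and 28.2. Every M library lay below every CK library, and M library 2 was the lowest. In the authors' deposited table the mean was 77.1 in CK and 18.1 in M, a log2 fold of -2.09 (adjusted p = 0.0220). The log2 fold was between -2.56 and -1.64 when any single library was left out, and -1.64 without M library 2.

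miR-483-5p, the other arm of the same hairpin, had 44, 47 and 70 reads in CK, at levels of 46.2, 34.0 and 45.1 normalized reads. In M it had 8, 8 and 27 reads, at levels of 17.0, 7.83 and 23.8. Its groups did not overlap either, and M library 2 was again the lowest and M library 3 the highest of M. In the authors' deposited table its mean was 41.8 in CK and 16.2 in M, a log2 fold of -1.37 (p = 0.0248, adjusted p = 0.574). The log2 fold was -1.75 to -1.03 with single libraries left out. The reads in M were few, and the exact 95% Poisson interval of the level in M library 2 was 1.59 to 11.4 for miR-483-3p and 3.38 to 15.4 for miR-483-5p. Such intervals cover counting error only.

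**Figure D1:**
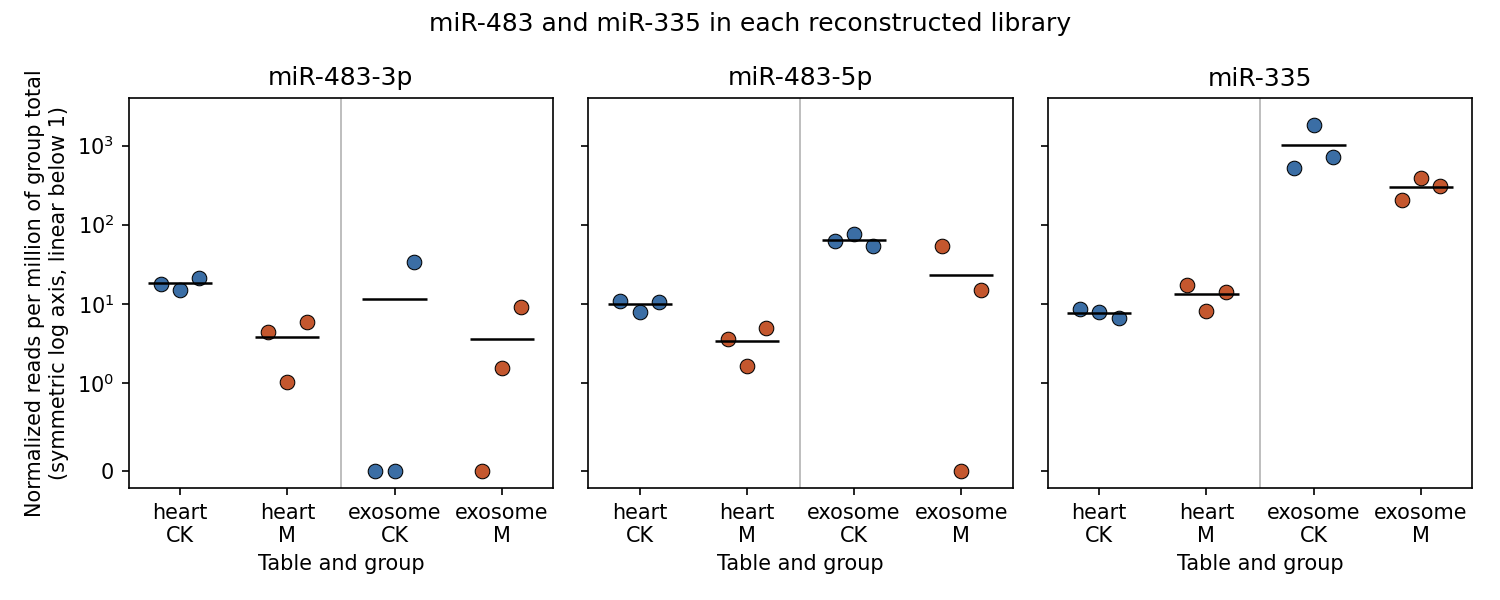
RPM (normalized reads per 1000000 of the group's summed normalized reads, symmetric log axis, linear below 1) for each member, with 1 point per reconstructed library (blue CK, orange M) and a line at the mean of the 3 libraries. In heart both miR-483 arms are lower in every M library than in any CK library, and miR-335 is far higher in all exosome libraries (207 to 1840 RPM) than in heart libraries (6.66 to 17.3 RPM).

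miR-335 had 35, 47 and 44 reads in the heart CK libraries, at levels of 36.8, 34.0 and 28.4 normalized reads, and 39, 40 and 76 reads in M, at levels of 82.8, 39.2 and 67.0. All 3 M libraries lay above the CK libraries, M library 2 only narrowly. In RPM, the lowest M value (8.19, library 2) was under the highest CK value (8.62, library 1), so the separation depends on the scaling. The authors' deposited table gave means of 33.0 and 63.0 and a log2 fold of 0.93 (p = 0.103, adjusted p = 0.793), and the log2 fold was 0.68 to 1.18 with single libraries left out. In M library 2 all 3 members were thus at the low end of the M libraries.

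Of the 3 members, 1 (miR-483-3p) was past an adjusted p of 0.05 in the authors' deposited heart table, where 0.697% of the 574 miRNAs were. With limma on the reconstructed levels, 0 of the 3 were past this threshold, where 0.722% of the 277 miRNAs fitted were. On that scale, log2(level + 1), the log2 folds were -2.30 ± 0.57 (standard error, SE) for miR-483-3p, -1.42 ± 0.45 for miR-483-5p and 0.85 ± 0.37 for miR-335. Their limma adjusted p-values over the 277 fitted miRNAs were 0.0787, 0.114 and 0.208, and the unadjusted ones 0.00256, 0.0111 and 0.0439, all under 0.05, as were 23.5% of the 277. On the authors' scale all 3 members had groups that did not overlap in heart, which held for 29.6% of the 277 miRNAs. Since the members were picked on this contrast, these counts describe them only. Leukocyte miRNAs moved with the groups as well: the authors' deposited means of miR-223-3p, miR-142-3p and miR-142-5p were all higher in M, and their summed level was 653 to 1004 in the heart CK libraries and 1247 to 1883 in M. The 3 red cell miRNAs summed to 19640 RPM in heart CK and 8388 in heart M, nearly all of it miR-486 (19144 and 7943 RPM). Among them the authors' deposited table gave log2 folds of -1.10 for miR-486 (p = 0.0313), -0.91 for miR-144-3p (p = 0.0819), whose M libraries all lay below those of CK, and 0.04 for miR-451-5p (p = 0.804). Of the 4 heart muscle miRNAs 3 had a lower M mean, with log2 folds in that table of -0.97 for miR-133a-3p, -0.93 for miR-208a-3p and -0.43 for miR-499-5p, and miR-1-3p had 0.29. The authors' deposited DESeq p-values of these 4, in that order, were 0.0178, 0.0625, 0.381 and 0.734. The M means of the liver miRNAs miR-122-5p (log2 fold 2.56) and miR-192-5p (0.37) were higher, and the endothelial miR-126a-3p had 0.30. The authors' deposited DESeq p-values of these were 0.150, 0.515 and 0.581. miR-122-5p had levels of 20.0, 10.1 and 20.6 in CK and 197, 16.6 and 85.6 in M. For both liver miRNAs M library 2 lay within the range of CK. The part of these miRNAs in the differences of the members was not tested. In bulk tissue, fewer cells of a type and less of a miRNA per cell cannot be told apart.

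**Figure D2:**
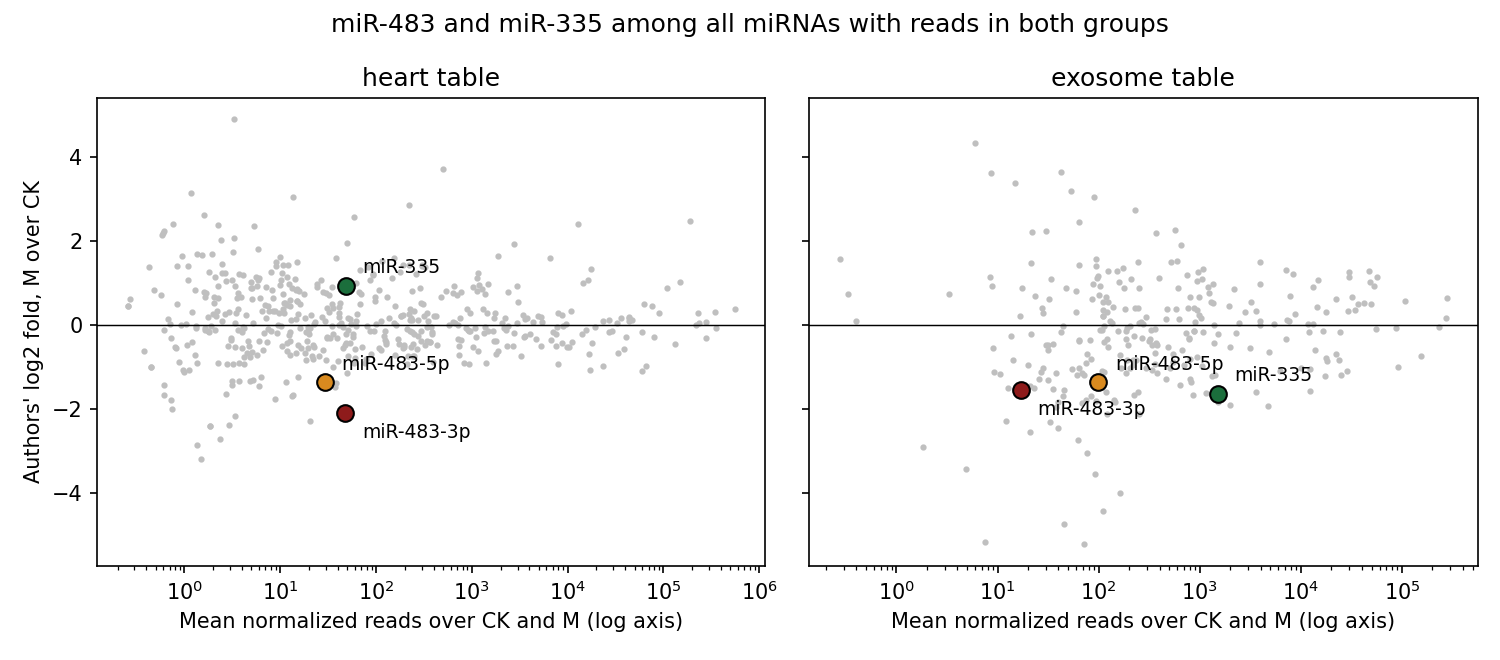
The authors' log2 fold of M over CK against the mean normalized reads (log axis) for every miRNA with reads in both groups, in the heart table (left) and the exosome table (right), with the members as large points. The 3 members lie at similar means in heart, 29.0 to 48.0, but are spread from 16.9 to 1506 in the exosome table, where miR-335 is the most abundant.

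The arms of a hairpin come from the same precursor, and their proportion within a library does not depend on the size factor. In heart CK, miR-483-3p made up 62.4% (73 of 117), 65.2% (88 of 135) and 66.8% (141 of 211) of the reads of both arms, so the 3p arm was the more abundant in each library. In heart M the shares were 55.6% (10 of 18), 38.5% (5 of 13) and 54.2% (32 of 59). The mean share was 64.8% ± 2.24 (SD, n = 3) in CK and 49.4% ± 9.51 (SD, n = 3) in M. The shares of M lay under those of CK, but the exact 95% binomial (Clopper-Pearson) intervals of all 3 M libraries, from 13.9-68.4% in library 2 to 40.8-67.3% in library 3, included the CK mean. With reads summed over libraries the share was 65.2% (60.7-69.6%) in CK and 52.2% (41.4-62.9%) in M. That M interval did not include the CK mean, but it covers counting error only and overlaps the summed CK interval. How many other hairpins separate CK from M in this way was not counted.

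In the exosome libraries the 5p arm was the more abundant in 5 of 6. The 3p arm had 0 of 106, 0 of 228 and 182 of 469 reads (38.8%) in CK, and 0 of 100, 3 of 3 and 18 of 47 (38.3%) in M. The upper 95% limits of the libraries with 0 reads were 3.42%, 1.60% and 3.62%, all far under any heart share. The library at 100% rests on 3 reads, and its interval reaches down to 29.2%. Over all libraries the share was 57.1% ± 10.4 (SD, n = 6) in heart and 29.5% ± 39.4 (SD, n = 6) in the exosome table, a difference of 27.6 percentage points, less than the spread between the exosome libraries. It was not tested, since the means of both arms in both tables were known when the members were picked. Without the library of 3 reads the exosome mean was 15.4% ± 21.1 (SD, n = 5). This comparison and the exclusion of libraries with under 10 reads of both arms were chosen after the values were seen. Within CK alone the difference was 51.9 percentage points, and within M alone it was 3.32 points. Compared were the 36 hairpins with both arms solved in both tables and at least 10 reads of both arms in at least 5 of 6 libraries of each. Among these, miR-483 had the 13th largest difference of the mean share with every library that had reads, and the 7th largest over libraries with at least 10 reads of both arms. Over the latter libraries the heart and exosome shares did not overlap for 27.8% of the hairpins, and they overlapped for miR-483 (38.5% in heart M library 2 against 38.8% in exosome CK library 3).

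**Figure D3:**
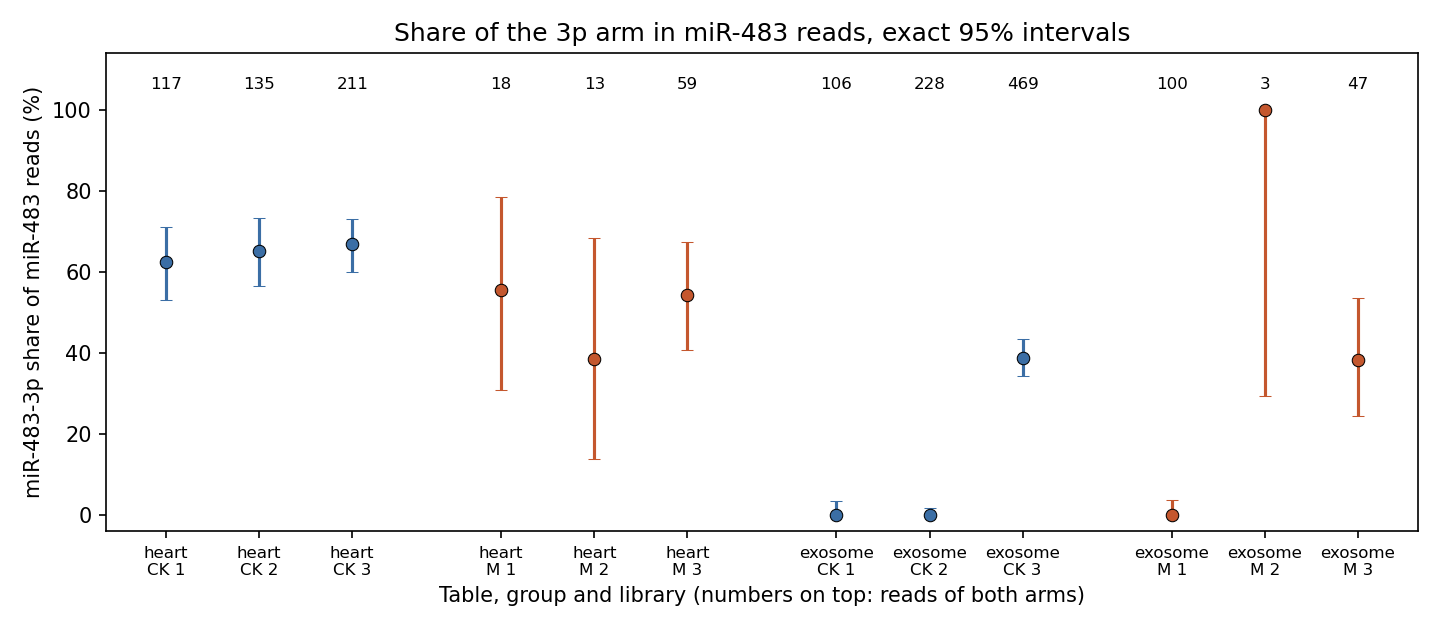
Share of miR-483-3p in the reads of both miR-483 arms (%) in each of the reconstructed libraries, with exact 95% binomial intervals (blue CK, orange M) and the reads of both arms printed on top. The heart CK libraries sit between 62.4% and 66.8%, and 3 of the 6 exosome libraries sit at 0%.

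In the exosome table the means of all 3 members were lower in M, but only the libraries of miR-335 separated the groups. miR-335 had 894, 5449 and 3852 reads in CK, at levels of 1168, 4076 and 1601 normalized reads. It had 384, 763 and 604 reads in M, at levels of 500, 944 and 744. Every M library was below every CK library, and CK library 2 was the highest of the 6. M lay entirely below CK for 9.24% of 249 miRNAs with solved reads, a share that counts 1 direction where the 29.6% in heart counts both. The liver miRNAs miR-122-5p and miR-192-5p were lower in M too, with a sum of 14550 RPM in exosome CK and 7379 in exosome M. Of these, miR-192-5p had levels of 2641, 1176 and 2089 in CK and 1040, 801 and 757 in M, likewise with no overlap. In the authors' deposited table its log2 fold was -1.19 (p = 0.0289, adjusted p = 0.259), and that of miR-122-5p was -0.83 (p = 0.158). Their part in the difference of miR-335 was not tested. For miR-335 the authors' deposited table gave means of 2282 and 730 and a log2 fold of -1.64 (p = 0.0966, adjusted p = 0.530). Without CK library 2 the log2 fold was -0.92, and with other single libraries left out it was -1.96 (without CK library 1) to -1.43. In limma the log2 fold on log2(level + 1) was -1.48 ± 0.47 (SE), with an adjusted p of 0.250.

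miR-483-5p had 106, 228 and 287 reads in the exosome CK libraries, at even levels of 138, 171 and 119 normalized reads. In M it had 100, 0 and 29 reads, at levels of 130, 0 and 35.7, so M library 1 lay within the range of CK. A count of 0 in M library 2 allows a level of up to 3.71 by a limit of 3 reads, or 4.56 at the upper end of the exact 95% Poisson interval. In the authors' deposited table the means were 143 and 55.3 and the log2 fold -1.37 (p = 0.445). It was -3.0 without M library 1 and -0.78 without M library 2.

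miR-483-3p was found in 3 of the 6 exosome libraries, with 0, 0 and 182 reads in CK and 0, 3 and 18 in M, at levels of 75.7 in CK library 3, 3.71 in M library 2 and 22.2 in M library 3. The authors' deposited means of 25.2 in CK and 8.63 in M, a log2 fold of -1.55 (p = 0.752), thus rest in CK on 1 library. Without that library its CK mean was 0 and M was the higher group. On the scale of log2(level + 1) the log2 fold was 0.17, of the opposite sign. CK library 3 was also the deepest exosome library, and a count of 0 in the other CK libraries allows levels of up to 3.92 and 2.24 by the limit of 3 reads, or 4.82 and 2.76 by the exact 95% Poisson interval, under its level of 75.7. In all, 0 of the 3 members were past an adjusted p of 0.05 in the authors' deposited exosome table, where 3.81% of 367 miRNAs were, and limma called 0 of the 3 and 0% of the 249 fitted. At an unadjusted p below 0.05 the authors' table held 0 of the 3, beside 13.9% of all its miRNAs, and limma 1, miR-335 (p = 0.00773), beside 13.3% of those fitted.

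**Figure D4:**
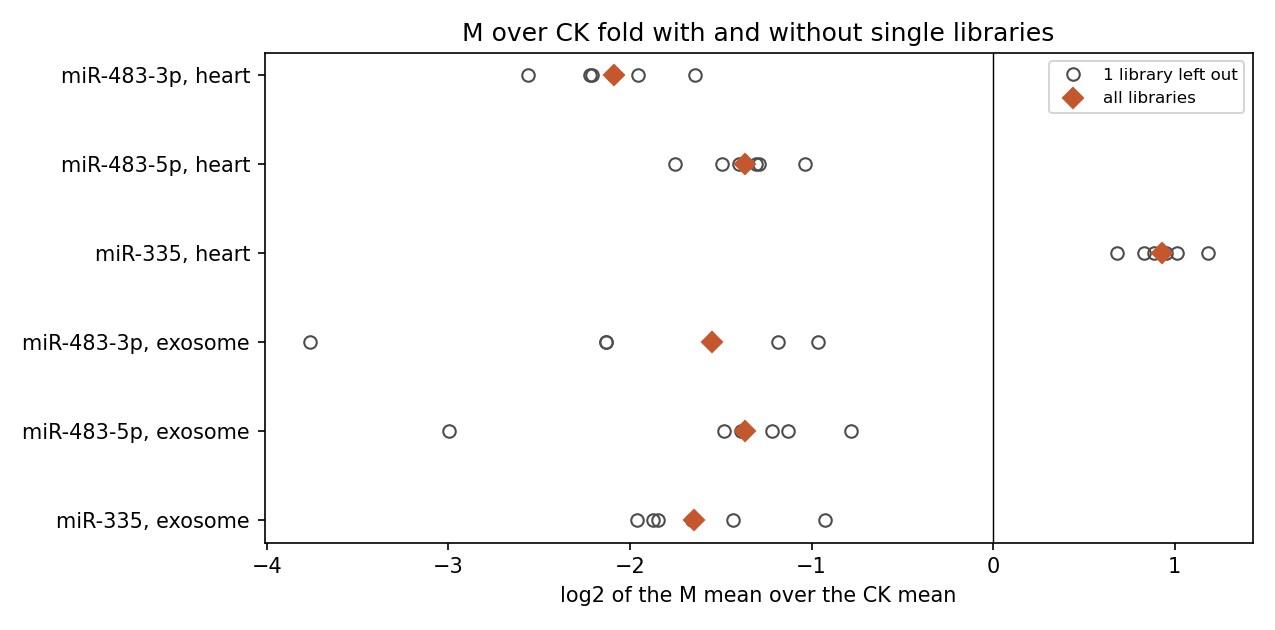
log2 of the M mean over the CK mean for each member, in the heart and the exosome table, with all libraries (diamonds) and with each single library left out in turn (open circles). The circles shown stay on 1 side of 0 in every row. Those of both miR-483 arms in the exosome table spread widest, from -3.76 to -0.96 for miR-483-3p and from -3.0 to -0.78 for miR-483-5p. There miR-483-3p has no circle for CK library 3, since its CK mean is then 0 and M is the higher group.

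The 3 members differed in which source held more of them. The tables were normalized separately, so levels across them are given in RPM and were not tested. miR-335 was highest in exosome CK (527 to 1840 RPM), then exosome M (207 to 391), and lowest in heart M (8.19 to 17.3) and heart CK (6.66 to 8.62), where the last 2 ranges overlap. In CK its mean RPM was 133 times as high in the exosome table as in heart, and in M 22.9 times. By its mean level miR-335 ranked 70 of 367 in the exosome table and 248 of 574 in heart. miR-483-5p was also higher in the exosome table, with 53.9 to 77.0 RPM in CK against 7.98 to 10.8 in heart CK. In exosome M it ranged from 0 to 53.9, which spans both heart groups, with 1.64 to 4.98 in heart M. miR-483-3p had its most even levels in heart CK, at 14.9 to 21.3 RPM, above heart M at 1.02 to 5.90, and above exosome M at 0 to 9.18. Heart M and exosome M overlapped, and exosome CK (0 to 34.2) spanned all of them.

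The miRNAs most like each member were taken by the root mean square distance between their log2(level + 1), centred over the 6 libraries of a table, among the solved miRNAs of that minimum mean. These libraries hold both CK and M, so near miRNAs tend by construction to share a member's direction of M against CK. In heart the nearest to miR-483-3p were miR-338-3p (distance 0.47), its own other arm miR-483-5p (0.53) and miR-208a-3p (0.58), a miRNA inside the cardiac myosin gene Myh6, where the median distance to all was 1.41. The nearest to miR-483-5p were the muscle miRNA miR-133b-3p (0.21), miR-29b-3p (0.24), whose targets include collagen mRNAs, and miR-547-5p (0.27), and miR-483-3p was the 25th nearest. In the authors' deposited table these had log2 folds of -1.68 (miR-338-3p), -0.93 (miR-208a-3p), -0.91 (miR-133b-3p), -0.92 (miR-29b-3p) and -0.83 (miR-547-5p), all lower in M, a direction that the distance favours. miR-335 lay nearest to miR-17-1-3p (0.16), miR-101b-3p (0.24) and miR-7a-5p (0.25), all with a higher M mean. The arms of miR-483 were far from it, 261st and 274th of the other 276 miRNAs. In the exosome libraries the nearest to miR-335 were miR-145-3p (0.46), miR-450b-3p (0.46) and miR-130a-3p (0.60). There miR-483-3p was nearest to miR-193b-3p (1.01), miR-132-5p (1.05) and miR-323-3p (1.07), and miR-483-5p to miR-93-3p (0.93), miR-485-3p (1.74) and miR-149-5p (1.77). The arms of miR-483 were 3.87 apart in the exosome libraries, more than the median distance of 2.89 from miR-483-3p, against 0.53 in heart.

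Outside the Dlk1-Dio3 cluster, the list of miR-675, miR-296, miR-298, the miR-344 family and the miR-297, miR-466, miR-467 and miR-669 families of the Sfmbt2 locus, all at imprinted loci, had 15 miRNAs in the heart table. Of these 10 had a higher and 5 a lower M mean and the median log2 fold was 0.51, beside 295 higher, 279 lower and 0.02 over all 574 miRNAs. Since miR-466b-2-3p and miR-466b-4-3p had identical reads in every heart library, these are 14 separate measurements, 9 of them higher. With a mean of at least 10 there were 5 higher and 4 lower, or 4 and 4 with that pair counted once. In the authors' deposited DESeq values 0 of the 15 were past the adjusted threshold and 1 (miR-466c-5p) was under an unadjusted p of 0.05, beside 7.67% of all heart miRNAs. limma fitted 9 of the 15, with 0 past the adjusted threshold and 2 under the unadjusted one, where 23.5% of all fitted were. miR-675, which is cut from H19, the maternally expressed neighbour of Igf2, was near the limit of detection. Its 3p arm had 0, 3 and 0 reads in heart CK and 2, 0 and 3 in M, and its 5p arm at most 1 read in any library. miR-296-5p of the Gnas locus had levels of 94.5, 39.8 and 71.6 in heart CK and 19.1, 33.3 and 40.6 in M, so that the groups overlapped narrowly (log2 fold -1.15 in the authors' deposited table, with p = 0.0736). miR-296-3p, the other arm, had a log2 fold of 0.72, miR-298-5p of -0.42 and miR-298-3p of -0.66 in that table. miR-466c-5p of the Sfmbt2 locus had levels of 73.5, 26.0 and 37.4 in CK and 102, 166 and 88.2 in M, with every M library above CK (log2 fold 1.38 in the authors' deposited table, p = 0.00419, adjusted p = 0.264).

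Of this list, 7 miRNAs were in the exosome table, 6 with a higher and 1 with a lower M mean. Under an unadjusted p of 0.05 were 0 of the 7 in the authors' deposited table, beside 13.9% of all its miRNAs. With limma it was 0 of the 3 fitted, beside 13.3% of all fitted. The 7 were 6 miR-466 rows and miR-298-5p, which had 66 reads in CK library 1 and 0 in every other library. Of the miR-466 rows, miR-466b-2-3p, miR-466b-4-3p and miR-466c-3p had identical reads in all libraries, 39 in M library 3 and 0 in the others, so they are not separate measurements. With these counted once, the 7 became 5, of which 4 were higher and 1 lower in M. miR-466b-3p also had 39 reads in M library 3 and 0 in the other M libraries, and differed only by 3 reads in CK library 1. The Dlk1-Dio3 cluster, a large imprinted miRNA locus, had 53 of 69 miRNAs higher in heart M and 26 of 28 lower in exosome M, with 0 and 1 past the adjusted threshold and 5 and 2 under an unadjusted p of 0.05, as the authors' deposited tables give it. limma fitted 29 of the 69 and 20 of the 28. Of these, 0 were past the adjusted threshold in either table, and 6 and 2 were under the unadjusted one. Over all miRNAs the authors' unadjusted p was under 0.05 for 7.67% in heart and 13.9% in the exosome table. The unadjusted limma p was so for 23.5% and 13.3% of all fitted. The cluster's parts under the unadjusted threshold were not above these shares. The cluster's median log2 folds were 0.75 and -2.60, and those over all miRNAs 0.02 and -0.35, with 217 of 367 lower in exosome M. At a mean of 10 or more the cluster's medians were 0.83 and -1.75, beside 0.01 and -0.32 over all such miRNAs. With rows of identical reads counted once, 52 of 68 were higher in heart M and 25 of 27 lower in exosome M. miR-335 thus lay on the same side as most of this cluster in both tables, and the means of both miR-483 arms did so in the exosome table only. There the CK mean of miR-483-3p rests on 1 library, and its log2 fold was 0.17, of the opposite sign, on log2(level + 1).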

How the data were processed

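Per the labels' protocols, a NEBNext small RNA kit was used for the libraries. Bowtie2 2.2.6, DESeq 1.30.0 and the build mRatBN7.2 are named in the submitters' processing notes, with no role given. Trimming, the miRNA annotation and the treatment of multiply matching reads were not given in the sources used here. Per the file headers, the authors deposited for each miRNA mean normalized read counts (a signal, reads over size factors) over all libraries, for CK and for M, their fold (ratio) of M over CK, its log2, a p-value and an adjusted p-value.

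Each mean, deposited with 15 digits, is a whole-number sum of 3 steps, 1 per library. Reads were solved within a relative tolerance of 6e-15 wherever at most 0.01 chance solutions were expected. Every mean searched had 1 solution, which covered 84.2% to 89.2% of values and all values of the members. Depth is the group's total times the size factor. Pairs of libraries of a group differed beyond counting noise (chi-square per degree of freedom 8.56 to 173). The solving and the limma fit were checked on simulated data. limma 3.58.1 (R 4.3.3, trend, Benjamini-Hochberg) was run on log2(level + 1) of miRNAs solved in every library at a minimum mean of 10. SciPy 1.17.1 gave exact intervals, and RNAfold 2.7.2 the fold. RefSeq held sequences for 2 of the 3 members, and its coordinates, of another build (GRCr8), are not printed. Named miRNAs are the members, the other imprinted-locus miRNAs, the 3 nearest in pattern per member and table, seed sharers and tissue markers. The members and lists were chosen with earlier results of these data known. Alternatives were other scalings, pseudocounts of 1 and 5, limma, a filter on low means and leaving out single libraries.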

Additional observations from a re-analysis of the deposited data

Results flagged for a closer look

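miR-335 moved in opposite directions in the 2 sources: its log2 fold of M against CK was 0.93 in heart, where every M library lay above every CK library, and -1.64 in the exosome table, where every M library lay below. The authors' deposited p-values were 0.103 in heart and 0.0966 in the exosome table. Separation in either direction held for 29.6% of 277 heart miRNAs, and M entirely below CK for 9.24% of 249 exosome miRNAs. How many miRNAs of both tables moved in opposite directions was not counted, but most of the Dlk1-Dio3 cluster lay on the same sides as miR-335. The difference between the tables was not tested. In heart the separation was lost when levels were scaled to the summed reads of each group.

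A library far from the other 5 was found for 2 of 8 measures examined over the 6 libraries of a tissue, CK and M together, by Dixon's criterion at 95%, which chance meets in about 1 in 20 groups. These were the level of miR-335 in exosome CK library 2, at 4076 normalized reads where the next highest was 1601, and the level of miR-483-3p in exosome CK library 3, at 75.7 where the next highest was 22.2.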

How the results depend on the processing

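Under other scalings, pseudocounts and single libraries left out, the log2 folds moved by less than the spread between libraries, but this spread is wide in the exosome table. There miR-483-3p turned from -1.55 to 0.17 with the mean of log2(level + 1), and no value could be given without CK library 3, where its CK mean is 0. In heart the call of miR-483-3p ended with limma (0 members past the threshold against 1), and its adjusted p was 0.0134 when the authors' p was adjusted over the 350 miRNAs whose mean was 10 or more. Under the same minimum the other imprinted-locus miRNAs higher in M numbered 5 against 10 in heart and 2 against 6 in the exosome table. The difference of the miR-483-3p share between heart and exosome libraries was 27.6 percentage points with all libraries, 21.7 to 41.7 with single libraries left out, with 41.7 the value without exosome M library 2, the sole library with under 10 reads of both arms (3 reads). The mean share in exosome M was 46.1% with that library and 19.1% without it, and 14.0% of reads summed. Counts under about 10 reads limit both arms in heart M and miR-483-3p in the exosome libraries. No paired analysis was possible because the reconstructed libraries carry no sample numbers.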

Other observations

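In the exosome CK libraries miR-483-3p and miR-466b-5p, which lies at another locus, had the same reads in every library, namely 0, 0 and 182, while their M reads differed (0, 3 and 18 against 0, 0 and 75). Of 249 exosome miRNAs solved in every library, at a mean of 10 or more, 103 had at least 100 reads in 1 library and 0 in another, against 1 of 277 in heart. miR-483-3p (182 and 0) and miR-483-5p (287 and 0) are both among these 103.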
